A study of Mus musculus with 9 samples.

Results

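The proteasome genes of the array were taken as the probe sets with 1 gene symbol that starts with Psma, Psmb, Psmc, Psmd, Psme, Psmf or Psmg followed by a number. This gave 56 of 24922 probe sets, for 50 genes. Of these, 5 genes make up the immunoproteasome class (Psmb8, Psmb9, Psmb10, Psme1 and Psme2), 43 are the other subunits, chaperones and regulators, and 2 (Psmc3ip and Psme3ip1) share the prefix but encode interacting proteins and were kept apart. After the filter on dim probe sets, 5 immunoproteasome genes, 42 other genes and Psme3ip1 were tested; Psma8 (25.2 to 29.8 intensity units) and Psmc3ip (38.0 to 49.1) fell under the limit of 41.8.

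RNA came from innate lymphoid cells of the skin of female B6 mice in which EGFP replaces 1 Ccr10 allele, in every group, so that green fluorescence reports the chemokine receptor CCR10 and all animals have a single intact Ccr10 allele. Cells were sorted as CD45.2+, CD3- and negative for a panel that names CD5, CD11b, B220, 7-4, Gr-1 and a Ter antigen. The Rag1-sufficient mice (the CCR10+/EGFP reporter alone) gave 2 GFP+ and 2 GFP- arrays. The Rag1-/- mice carry the same reporter, lack the recombinase needed for B and T cell receptors and so have no conventional B or T cells, and gave 2 GFP+ and 3 GFP- arrays. The age of the animals, any pooling and the source of each replicate are not given in the sources used here. Replicates may therefore share animals, and p-values cover only the variation among these arrays, part of which may be technical.

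The proteasome is the barrel-shaped protease that degrades ubiquitin-tagged proteins. Its core particle has outer rings of alpha subunits (Psma genes) and inner rings of beta subunits (Psmb genes), of which Psmb5, Psmb6 and Psmb7 encode the proteolytic sites of the standard form. The regulatory particle holds a ring of ATPases (Psmc genes) and non-ATPase subunits (Psmd genes) that bind and unfold substrates. In immune cells, and in other cells exposed to interferon-gamma, Psmb8, Psmb9 and Psmb10 take the places of Psmb5, Psmb6 and Psmb7, and the Psme1-Psme2 activator can cap the core. This immunoproteasome favours peptides that fit MHC class I.

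The promoter sequences below are shown because the results turn on these 5 immunoproteasome genes and on Psmb5 and Psmb3, the standard subunits with large or precisely measured differences. They are the 250 bases before the RefSeq start of each gene (build GRCm38.p6), 5′ to 3′ on the gene's strand. Capitals mark a match, on either strand, to 1 of 4 searched motifs: the interferon-gamma-activated site GAS (TTCNNNGAA), an interferon response element-like motif (GAAA, any 2 bases, GAAA), the antioxidant-type element ARE (TGACNNNGC) to which Nfe2l1 binds, and CCAAT. The windows are Psmb8 at chr17:34197945-34198194 (+), Psmb9 at chr17:34187331-34187580 (-), Psmb10 at chr8:105938393-105938642 (-), Psme1 at chr14:55578244-55578493 (+), Psme2 at chr14:55591102-55591351 (-), Psmb5 at chr14:54617996-54618245 (-) and Psmb3 at chr11:97703184-97703433 (+). Psme2 has a second, overlapping window in the table.
Psmb8: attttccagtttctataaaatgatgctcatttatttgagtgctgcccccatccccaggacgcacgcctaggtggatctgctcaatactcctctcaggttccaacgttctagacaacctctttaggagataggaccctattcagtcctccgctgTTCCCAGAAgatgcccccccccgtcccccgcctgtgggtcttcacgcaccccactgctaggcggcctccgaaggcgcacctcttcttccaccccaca
Psmb9: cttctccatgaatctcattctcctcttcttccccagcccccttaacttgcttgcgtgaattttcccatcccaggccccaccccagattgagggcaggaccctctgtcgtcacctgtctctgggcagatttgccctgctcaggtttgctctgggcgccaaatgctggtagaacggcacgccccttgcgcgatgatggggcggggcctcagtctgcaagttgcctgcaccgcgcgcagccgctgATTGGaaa
Psmb10: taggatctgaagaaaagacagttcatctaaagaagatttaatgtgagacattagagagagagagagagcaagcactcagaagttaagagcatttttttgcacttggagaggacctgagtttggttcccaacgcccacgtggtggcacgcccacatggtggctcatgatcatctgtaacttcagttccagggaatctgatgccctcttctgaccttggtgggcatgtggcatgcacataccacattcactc
Psme1: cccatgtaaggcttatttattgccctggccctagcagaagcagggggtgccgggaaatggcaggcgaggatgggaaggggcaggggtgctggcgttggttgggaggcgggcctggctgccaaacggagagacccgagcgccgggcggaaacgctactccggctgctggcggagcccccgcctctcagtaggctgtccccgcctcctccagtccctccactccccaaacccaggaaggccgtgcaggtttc
Psme2: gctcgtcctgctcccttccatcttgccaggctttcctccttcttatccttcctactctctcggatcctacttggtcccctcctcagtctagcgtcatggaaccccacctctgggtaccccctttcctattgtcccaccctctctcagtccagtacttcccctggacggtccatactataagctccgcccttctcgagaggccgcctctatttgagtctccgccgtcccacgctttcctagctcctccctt
Psmb5: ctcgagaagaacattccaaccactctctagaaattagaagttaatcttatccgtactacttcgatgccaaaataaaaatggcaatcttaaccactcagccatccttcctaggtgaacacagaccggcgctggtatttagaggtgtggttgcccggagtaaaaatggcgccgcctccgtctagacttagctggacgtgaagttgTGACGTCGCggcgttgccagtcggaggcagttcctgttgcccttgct
Psmb3: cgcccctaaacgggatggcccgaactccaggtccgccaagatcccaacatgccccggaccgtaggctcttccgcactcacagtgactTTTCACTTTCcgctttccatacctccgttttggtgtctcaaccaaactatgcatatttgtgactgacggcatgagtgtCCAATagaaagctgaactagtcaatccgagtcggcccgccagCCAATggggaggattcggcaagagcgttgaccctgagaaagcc

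In Psmb8 the GAS match TTCCCAGAA lay 97 to 89 bases before the start, and in Psmb5 the ARE match TGACGTCGC lay 47 to 39 bases before it. Psmb9 held a reverse CCAAT 8 to 4 bases before its start. Psmb3 held the interferon response element-like match TTTCACTTTC at 163 to 154 bases and CCAAT at 85 to 81 and at 43 to 39 bases. These matches do not overlap one another. The windows of Psmb9 and of Tap1, a transporter that carries proteasome products into the endoplasmic reticulum and is read in the opposite direction, overlap at chr17:34187306-34187580 in the table, whose full windows also run past the gene start and are longer than the stretches printed here. Among 27025 genes with a window, 8.13% held GAS, 3.46% the interferon response element-like motif, 11.5% ARE and 37.5% CCAAT. The counts were 1, 0, 0 and 1 of 5 immunoproteasome genes and 1, 3, 5 and 13 of the 35 other proteasome genes with a window. A match is a stretch of letters and not a measured binding site.

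Array medians lay between 74.1 and 77.6, and rank correlations between arrays between 0.975 and 0.993. Rag1 intensity was below the filter on every array (28.4 to 31.4), so it cannot check the genotype labels, and Ccr10 intensity overlapped between fractions in Rag1-/- mice (96.5 to 148 in GFP+, 103 to 125 in GFP-). The leukocyte and innate lymphoid markers were present on all arrays, among them Id2 (6727 to 7905), Il7r (2566 to 3806) and Ptprc (1052 to 1705). Mast cell transcripts were carried unequally: their summed intensity over 11 genes was 929 to 1013 on the Rag1-sufficient GFP+ arrays and 10504 to 10684 on the GFP- arrays of the same mice. On the Rag1-/- arrays it was 1369.6 to 4900.5 for GFP+ and 4823 to 6133 for GFP-. Of the 9 mast cell genes tested, 7 fell in GFP+ against GFP- Rag1-sufficient samples (limma, adjusted p at most 0.0304). In sorted bulk samples such as these, fewer cells of a type and less RNA per cell cannot be told apart.

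The proteasome genes differed between the arrays of both Rag1-/- groups. On Rag1-/- GFP- replicate 3, 43 of 47 proteasome genes were above the mean of the other 2 arrays of that group, by a median of 0.43 on the log2 scale, against 54.0% of all tested genes and a median of 0.016. On Rag1-/- GFP+ replicate 1, 40 of 47 were below replicate 2, by a median of 0.36, against 50.9% of all tested genes. With 2 arrays in that group, the group alone cannot tell which of them stands apart, and array weights are always equal within such a pair. Rank correlations with the arrays of the other groups were 0.977 to 0.987 for replicate 1 and 0.984 to 0.993 for replicate 2. The pairs of Rag1-sufficient arrays were closer: replicate 1 minus replicate 2 had a median of 0.11 in GFP+ and 0.013 in GFP- samples. Rag1-/- GFP+ replicate 1 also held 2085 units of the mast cell gene Cpa3 against 19.9 on replicate 2, and the part of this in its proteasome values was not tested. The medians of both classes are given with and without these arrays, and so are the main differences of single genes that leaving out 1 array moved by over 1.5 times.

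**Figure D1:**
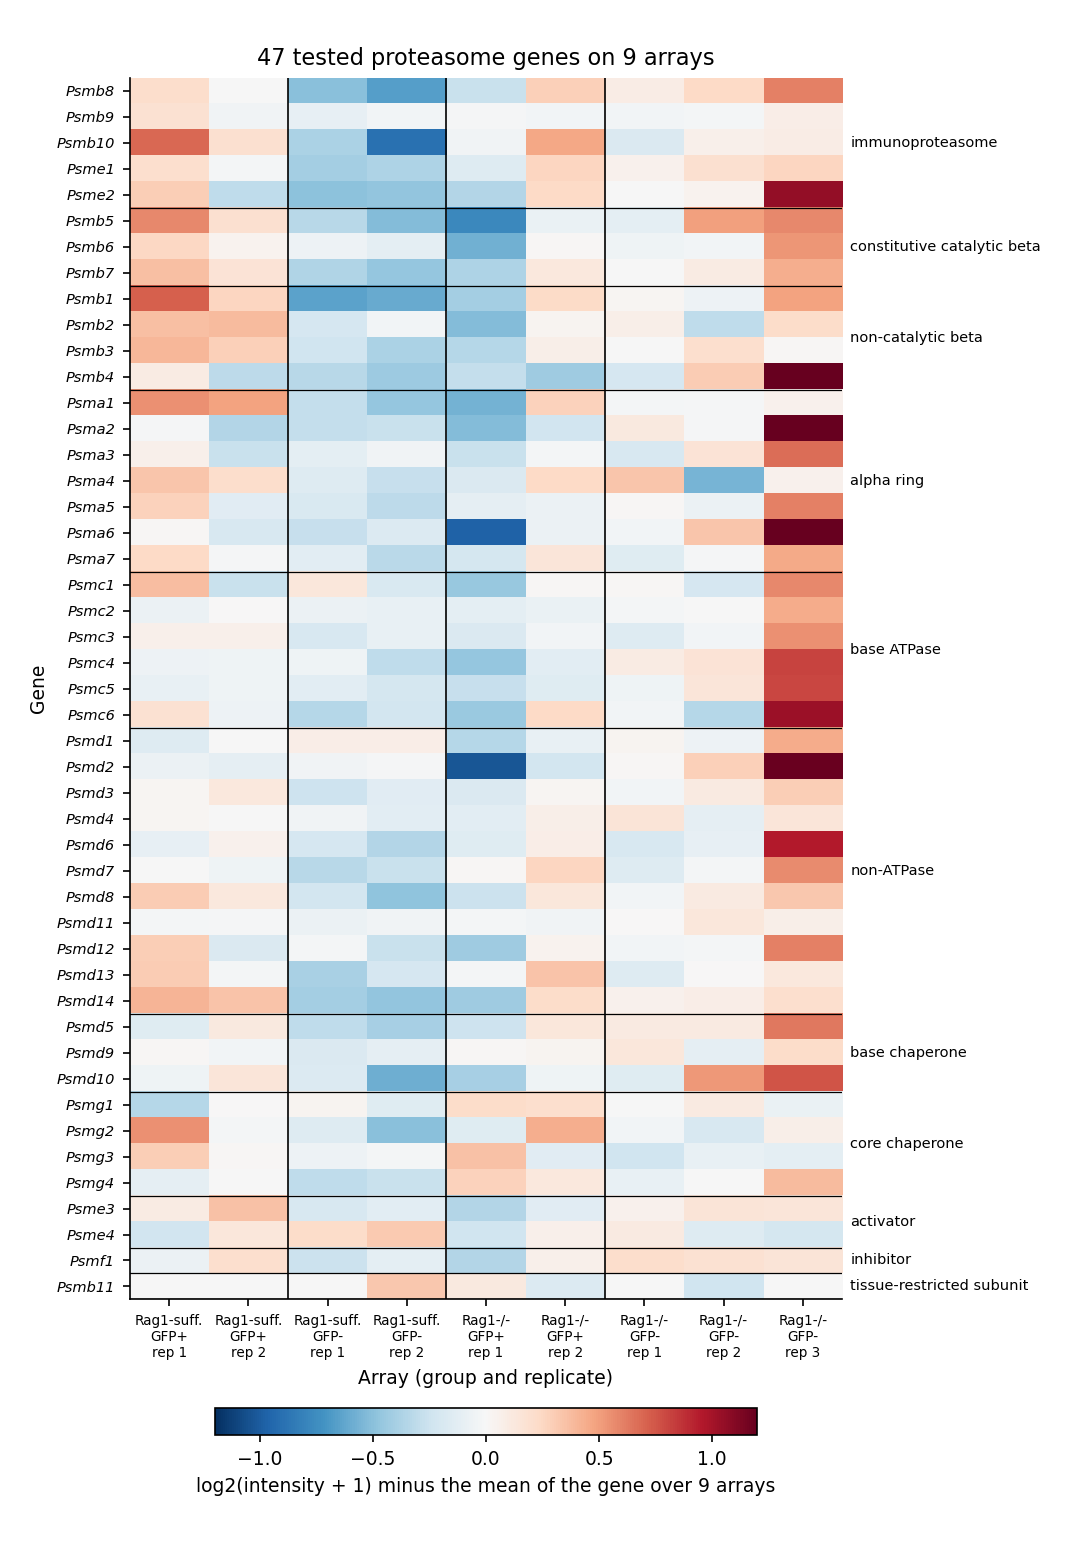
Colour gives log2(intensity + 1) minus the gene's mean over the 9 arrays, for 47 tested proteasome genes (lines, grouped by role) and 9 arrays (columns, vertical lines between groups). Colours are capped at -1.2 and 1.2. Both Rag1-sufficient GFP- columns and Rag1-/- GFP+ replicate 1 are mostly blue, and Rag1-/- GFP- replicate 3 is mostly red.

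Over the 47 tested proteasome genes, a gene's highest array was a median of 1.87 times its lowest, against 1.43 for all 13916 tested genes. Psmd11, a non-ATPase subunit, varied least (285 to 328, a ratio of 1.15). Psma6 of the alpha ring varied most, from 176 on Rag1-/- GFP+ replicate 1 to 895 on Rag1-/- GFP- replicate 3 (a ratio of 5.08).

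Psmb8, the inducible replacement of Psmb5, read 268 and 232 in Rag1-sufficient GFP+ cells, 163 and 146 in Rag1-sufficient GFP-, 193 and 284 on the Rag1-/- GFP+ arrays, and 247, 275 and 355 in Rag1-/- GFP- cells. Both Rag1-sufficient GFP- arrays were below all 7 others. Psmb10, which replaces Psmb7, read 534 and 379, then 255 and 178, then 322 and 458, then 293, 346 and 352 in the same order of groups. Again the Rag1-sufficient GFP- arrays were the lowest.

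Psmb9, the replacement of Psmb6, was nearly level: 238 and 203 in Rag1-sufficient GFP+, 195 and 204 in Rag1-sufficient GFP-, 207 and 204 on the Rag1-/- GFP+ arrays, and 204, 206 and 221 in Rag1-/- GFP- cells. Its highest array was 1.22 times its lowest, and of the 4 comparisons between groups it lacked overlap only between the GFP- samples of the 2 genotypes, at 203.48 at most and 203.52 at least.

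Psme1 encodes the alpha chain of the activator that caps the core. It read 944 and 803 in Rag1-sufficient GFP+, 618 and 632 in Rag1-sufficient GFP-, 737 and 978 on the Rag1-/- GFP+ arrays, and 846, 932 and 978 in Rag1-/- GFP- cells. Psme2, its partner chain, read 665 and 441, then 385 and 389.6, then 426 and 642, then 541, 559 and 1127 in that order. For both genes the Rag1-sufficient GFP- arrays were the lowest of the 9, and for Psme2 the array at 1127 was Rag1-/- GFP- replicate 3. A further probe set that the annotation gives to Psme2 and Psme2b together, outside the rule, read 203 and 216 in Rag1-sufficient GFP- cells and 252 to 611 on the other arrays.

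**Figure D2:**
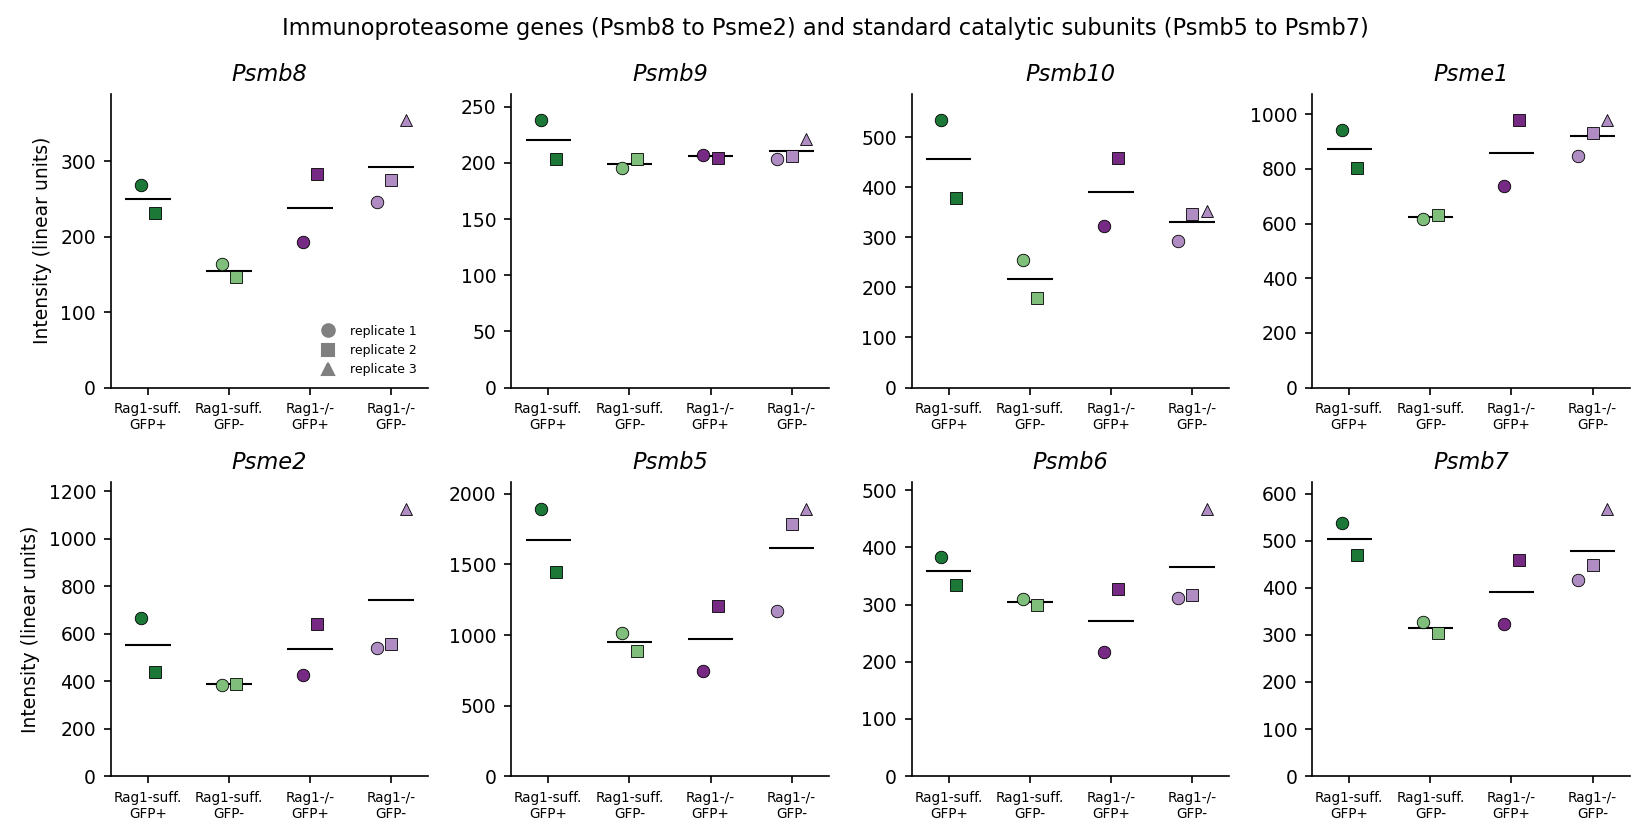
Each panel plots intensity on a linear axis from 0 for 1 gene; points are arrays, symbols give the replicate number and bars the group mean (n = 2, 2, 2 and 3). The Rag1-sufficient GFP- points are the lowest for Psmb8, Psmb10, Psme1 and Psme2, Psmb9 stays between 195 and 238, and the standard subunits Psmb5 and Psmb6 are lowest on Rag1-/- GFP+ replicate 1.

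The standard catalytic subunits differed from this order on Rag1-/- GFP+ replicate 1, which was below at least 1 Rag1-sufficient GFP- array for each gene. Rag1-/- GFP+ replicate 2 was above both Rag1-sufficient GFP- arrays. Psmb5, the chymotrypsin-like site, read 1894 and 1449 in Rag1-sufficient GFP+, 1012 and 886 in Rag1-sufficient GFP-, 742 and 1205 on the Rag1-/- GFP+ arrays, and 1169.5, 1787 and 1895 in Rag1-/- GFP- cells. Psmb7, the trypsin-like site, read 538 and 470.4, then 327 and 304, then 323 and 458, then 416, 448 and 568. Psmb6, the caspase-like site, read 384 and 334, then 311 and 299, then 216 and 327, then 312, 317 and 468. For all 3 genes, both Rag1-/- GFP+ arrays were below both Rag1-sufficient GFP+ arrays.

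The balance of each immunoproteasome subunit with the standard subunit it replaces was followed as a log2 ratio, set to a mean of 0 over the 9 arrays because levels of different probe sets cannot be compared. The Psmb8 to Psmb5 ratio was 0.44 ± 0.10 (SD, n = 2) in Rag1-/- GFP+ cells, -0.0017 ± 0.23 (n = 3) in Rag1-/- GFP-, -0.28 ± 0.12 (n = 2) in Rag1-sufficient GFP+ and -0.16 ± 0.02 (n = 2) in Rag1-sufficient GFP- cells. Both Rag1-/- GFP+ arrays (0.37 and 0.51) were above the other 7, of which the highest was 0.21. The Psmb10 to Psmb7 ratio in GFP+ cells was 0.33 ± 0.0047 (SD, n = 2) without Rag1 and 0.17 ± 0.21 (n = 2) with it, and in GFP- cells -0.19 ± 0.16 (n = 3) and -0.23 ± 0.29 (n = 2). For this pair the GFP+ groups lay above the GFP- groups in both genotypes without overlap. The Psmb9 to Psmb6 ratio spread from -0.05 to 0.57 between the 2 Rag1-/- GFP+ arrays and overlapped the Rag1-/- GFP- arrays (-0.45 to 0.01). These ratios were not tested.

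The first comparison asked how CCR10-reporter-positive and -negative cells of Rag1-sufficient mice differ. GFP+ minus GFP- was positive for all 5 immunoproteasome genes, with a median of 0.48, and for 36 of 42 other proteasome genes, with a median of 0.26. Of all tested genes 54.1% were positive, with a median of 0.016. The 2 groups did not overlap for 35 of 47 proteasome genes in the direction of higher GFP+ values (29.2% of all tested genes) and for 3 in the other direction (21.4%). None passed an adjusted p of 0.05 in limma (0.747% of all tested genes did), while 13 were higher at an unadjusted p under 0.05 (7.70% of all tested genes) and none lower (4.89%).

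Among the immunoproteasome genes the difference was 1.08 ± 0.26 (SE) for Psmb10 (limma, adjusted p = 0.122), 0.69 ± 0.23 for Psmb8 (0.252), 0.48 ± 0.18 for Psme1 (0.309), 0.48 ± 0.38 for Psme2 (0.695) and 0.14 ± 0.13 for Psmb9 (0.763). Leaving out Rag1-sufficient GFP+ replicate 1 moved the class median to 0.36, Psme2 to 0.19 and Psmb9 to 0.027. Leaving out replicate 2 of that group moved them to 0.78, 0.78 and 0.25.

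Core particle genes had larger differences than the regulatory particle: the median was 0.41 over the 14 core genes outside the immunoproteasome and 0.20 over the 17 regulatory genes, a contrast that was not tested. Psmb1, a non-catalytic beta subunit, read 584 and 425 in Rag1-sufficient GFP+ against 227 and 232 in GFP- cells, a difference of 1.12 ± 0.27 (limma, adjusted p = 0.126). Psmb3, of the same ring, read 6098 and 5644 against 3915 and 3546. Its difference of 0.65 ± 0.14 had the smallest adjusted p of the class (0.0967), and its second probe set gave 0.67. In the alpha ring, Psma1 read 789.8 and 759 against 444 and 393, a difference of 0.89 ± 0.25 (adjusted p = 0.178).

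In the regulatory particle, Psmd14, the deubiquitinase of its lid, read 853 and 813 against 485 and 463, a difference of 0.81 ± 0.21 (limma, adjusted p = 0.148). The 6 ATPases Psmc1 to Psmc6 were all positive but small, from 0.05 to 0.34, and 1 array left out turned Psmc1 (-0.25 without Rag1-sufficient GFP+ replicate 1) and Psmc4 (-0.0011 without Rag1-sufficient GFP- replicate 2). Psmd1, a scaffold subunit, was lower without overlap (475 and 526 against 557 and 558, -0.16 ± 0.20), as were Psmd2 (521 and 506 against 531 and 541, -0.06 ± 0.38; 0.00 by its other probe set) and the nuclear activator gene Psme4 (374 and 480.3 against 512 and 543, -0.31 ± 0.19). Without Rag1-sufficient GFP+ replicate 1, Psmd1 was at -0.08 and Psme4 at -0.13.

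Whether these genes passed the threshold depended on arrays of other groups, which enter only through the shared estimate of the spread. When either single Rag1-/- GFP+ array was left out, Psma1, Psmb3 and Psmd14 passed in limma (adjusted p from 0.0256 to 0.0325), with the same differences, while 334 of 17445 probe sets were called. With array weights, 9 proteasome genes passed, Psmb8 and Psmb10 among them, and 7.41% of all probe sets were called. The Rag1-sufficient GFP- arrays held the highest mast cell sum, 10504 at the least, and dendritic cell sums of 623 to 687 against 462 to 509 in GFP+ arrays. Their part in the lower proteasome values was not tested.

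**Figure D3:**
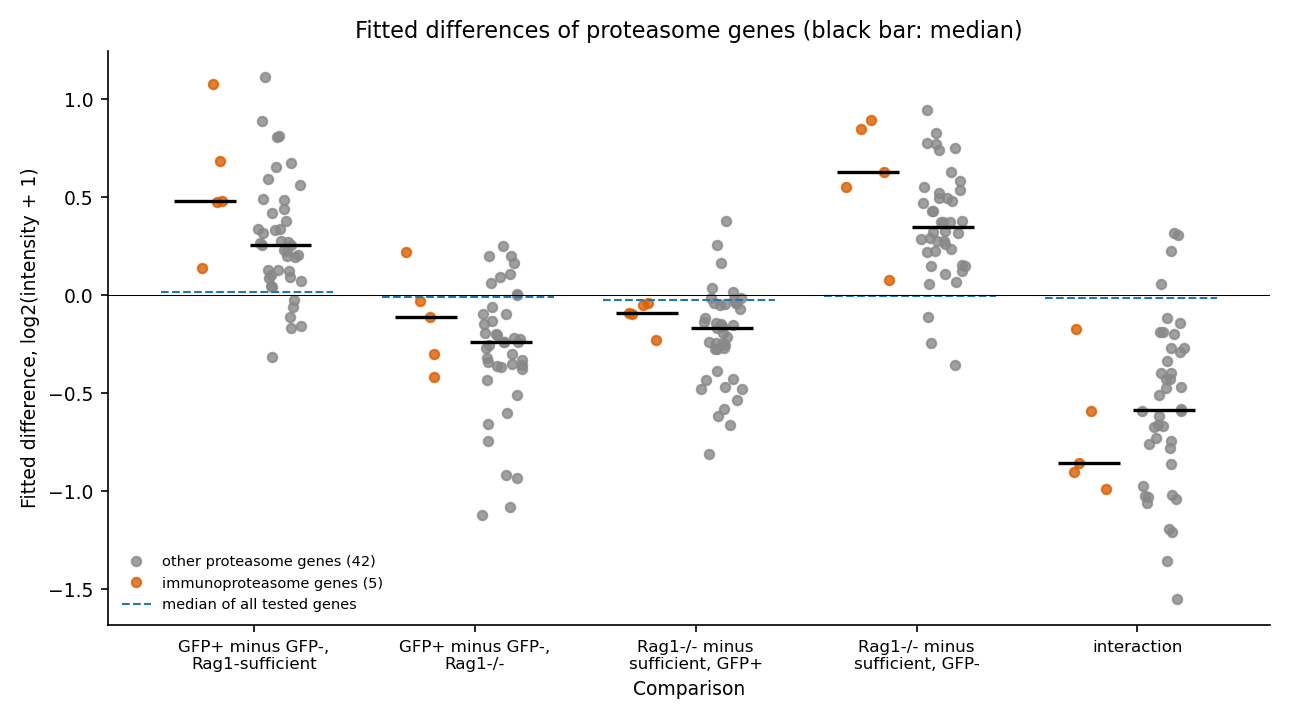
Each point is the fitted difference of 1 gene on the log2(intensity + 1) scale in 1 of 5 comparisons, orange for 5 immunoproteasome and grey for 42 other proteasome genes; points are spread sideways at random, black bars are medians and the dashed blue line is the median of all tested genes. The medians lie above the dashed line for GFP+ minus GFP- in Rag1-sufficient mice (0.48 and 0.26) and for Rag1-/- minus Rag1-sufficient in GFP- cells (0.63 and 0.35), and below it in the interaction (-0.86 and -0.58).

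The Rag1-/- minus Rag1-sufficient comparison in GFP- cells shares its reference arrays with the comparison above: the low Rag1-sufficient GFP- values enter both. All 5 immunoproteasome genes were higher in Rag1-/- cells with no overlap, by a median of 0.63 (Psmb9 turned to -0.04 with quantile normalization), and 39 of 42 other genes had positive differences, with a median of 0.35 (49.8% of all tested genes were positive). Over the 47 genes, 32 were higher without overlap (22.9% of all tested genes) and 2 lower (17.4%). In limma 0 passed the adjusted threshold (0.158% of all tested genes did), 15 were higher at an unadjusted p under 0.05 (9.73% of all tested genes) and 0 lower (6.79%).

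Of the 47 genes, Psmb8 had the smallest adjusted p, with a difference of 0.90 ± 0.21 (limma, adjusted p = 0.139). Psme1 followed at 0.55 ± 0.17 (0.191), Psmb10 at 0.63 ± 0.23 (0.239), Psme2 at 0.85 ± 0.34 (0.262) and Psmb9 at 0.08 ± 0.12 (0.764). Without Rag1-/- GFP- replicate 3, Psme2 was at 0.50 and Psmb9 at 0.04, and without Rag1-sufficient GFP- replicate 2, Psmb10 was at 0.37. Among the other genes, Psmd5, a chaperone of the ATPase ring, read 115 and 108 in Rag1-sufficient GFP- against 154, 153.5 and 222 in Rag1-/- GFP- cells (0.63 ± 0.19, adjusted p = 0.193). Psmb1 was higher by 0.77 ± 0.25 (0.203), with 360.5, 339.8 and 496 in Rag1-/- GFP- cells. The highest fitted difference, that of Psmb4, rested on 1 array: 281 and 260.3 against 308, 436 and 1064 (0.95 ± 0.44, adjusted p = 0.305; 0.43 without replicate 3). Psma2, of the alpha ring, had the same form, with 248 and 251 against 328, 299 and 891 (0.83 ± 0.41, adjusted p = 0.335; 0.33 without replicate 3).

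Without Rag1-/- GFP- replicate 3 the immunoproteasome median was 0.51 and that of the other genes 0.21, and 32 of 47 genes were higher without overlap (26.8% of all tested genes) and 3 lower (20.5%); leaving out an array can only keep or add such genes. With array weights, 7 genes passed in limma: Psmb8, Psme1, Psmb3, Psmb5, Psmd5, Psmd10 and Psmd14 (adjusted p from 0.0209 to 0.0496), and 6.68% of all probe sets were called.

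In Rag1-/- mice the GFP+ and GFP- fractions had the opposite order for most proteasome genes when all arrays were used. This comparison shares no array with that in Rag1-sufficient mice. It does share the Rag1-/- GFP- arrays, replicate 3 among them, with Rag1 loss among GFP- cells. Its Rag1-/- GFP+ arrays also enter Rag1 loss among GFP+ cells. GFP+ minus GFP- was negative for 4 of 5 immunoproteasome genes (median -0.11, turning to 0.04 with quantile normalization) and for 33 of 42 other genes (median -0.24), while 48.2% of all tested genes were positive. Groups did not overlap for 11 genes with lower GFP+ values (10.8% of all tested genes) and for 1, Psmg1, with higher values (5.20%). No tested gene of the array passed the adjusted threshold in limma (0%), and 7 proteasome genes were lower at an unadjusted p under 0.05 (5.0% of all tested genes) and 0 higher (1.5%).

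Psmd2, a base subunit that docks ubiquitin-binding shuttle proteins, read 269 and 468 in Rag1-/- GFP+ against 551, 668 and 1245 in GFP- cells. Its difference was -1.12 ± 0.35 (limma, adjusted p = 0.689), and its second probe set gave -0.97. Psma6 read 176 and 329 against 339, 437 and 895 (-1.08 ± 0.40, adjusted p = 0.689). Psma2 read 209.6 and 257 against 328, 299 and 891 (-0.93 ± 0.41, adjusted p = 0.689). For these genes the lowest and the highest of the 9 arrays were Rag1-/- GFP+ replicate 1 and Rag1-/- GFP- replicate 3. Without the former, Psmd2 was at -0.72 and Psma6 at -0.63, and without the latter, Psma6 was at -0.67 and Psma2 at -0.43.

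This order depended on which arrays were kept. Without Rag1-/- GFP+ replicate 1 the medians were -0.02 for immunoproteasome and -0.10 for other genes, and without Rag1-/- GFP- replicate 3 they were -0.06 and -0.12. Without Rag1-/- GFP+ replicate 2 they were -0.32 and -0.48. With Rag1-/- GFP+ replicate 1 and Rag1-/- GFP- replicate 3 both left out, a choice made after the data were seen, the medians turned to 0.14 and 0.04. Then 28 of 47 genes were positive, and 4 of 5 immunoproteasome genes were higher in GFP+ cells without overlap, although only 1 GFP+ array was left. In that setting 20 of 47 genes were higher and 11 lower without overlap (25.4% and 30.7% of all tested genes), counts that can only grow as arrays are left out.

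For Rag1-/- minus Rag1-sufficient in GFP+ cells the differences were smaller. This comparison shares the Rag1-sufficient GFP+ arrays with the first one and the Rag1-/- GFP+ arrays with the Rag1-/- gate comparison. All 5 immunoproteasome genes overlapped between genotypes, with differences from -0.23 (Psmb10) to -0.04 (Psme1) and a median of -0.09; with quantile normalization Psme1 and Psme2 turned to 0.07 and 0.04. Of the 42 other genes, 37 were negative (median -0.16; 43.5% of all tested genes were positive). Over the 47 genes, 14 were lower without overlap (18.6% of all tested genes) and 4 higher (11.2%). In limma 0 passed the adjusted threshold (0.115% of all tested genes did), with 5 lower and 1 higher at an unadjusted p under 0.05 (4.48% and 2.41% of all tested genes). The 4 genes higher without overlap were Psmg1, Psmg4, Psmd7 and Psmd9. Psmg4 read 106 and 95.4 in Rag1-/- GFP+ against 81.0 and 86.6 in Rag1-sufficient GFP+ cells, and Psmd7 219 and 259 against 217 and 209. With each array left out in turn, the difference ran from 0.19 to 0.33 for Psmg4 and from 0.043 to 0.28 for Psmd7.

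By the chosen probe set of each gene, the 14 core particle genes outside the immunoproteasome were all negative, with a median of -0.41. The median was -0.15 over the 17 regulatory genes, a contrast that was not tested. The other probe set of Psma5 gave 0.067. By the chosen sets, Psma2 to Psma7 on Rag1-/- GFP+ replicate 2 lay between the Rag1-sufficient GFP+ arrays. The other core genes outside the immunoproteasome lay below both of those arrays on replicate 2. Psmb5 was lower by 0.81 ± 0.30 (limma, difference -0.81, adjusted p = 0.600), Psma1 by 0.66 ± 0.25 (-0.66, 0.630), Psmb2 by 0.62 ± 0.22 (-0.62, 0.592) and Psmb3 by 0.48 ± 0.14 (-0.48, 0.452). Psma1 read 364 and 657.5 in Rag1-/- GFP+ against 789.8 and 759 in Rag1-sufficient GFP+ cells, so its lower value came mostly from replicate 1, and it alone of the class passed without replicate 2 (-1.09, limma, adjusted p = 0.0437), where 136 of 17445 probe sets (0.78%) were called against 43 with all arrays. Without replicate 1, Psma1 was at -0.24, Psmb5 at -0.46, Psmb2 at -0.34 and Psmb3 at -0.27. In the immunoproteasome class Psmb10 turned to 0.027 and Psme1 to 0.17 without that array. Without Rag1-/- GFP+ replicate 1 the medians were 0.17 for immunoproteasome and -0.05 for other genes; without Rag1-/- GFP+ replicate 2 they were -0.34 and -0.33. Leaving out Rag1-sufficient GFP+ replicate 1 moved the immunoproteasome median to 0.02, and leaving out replicate 2 of that group moved the medians to -0.21 and -0.26.

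**Figure D4:**
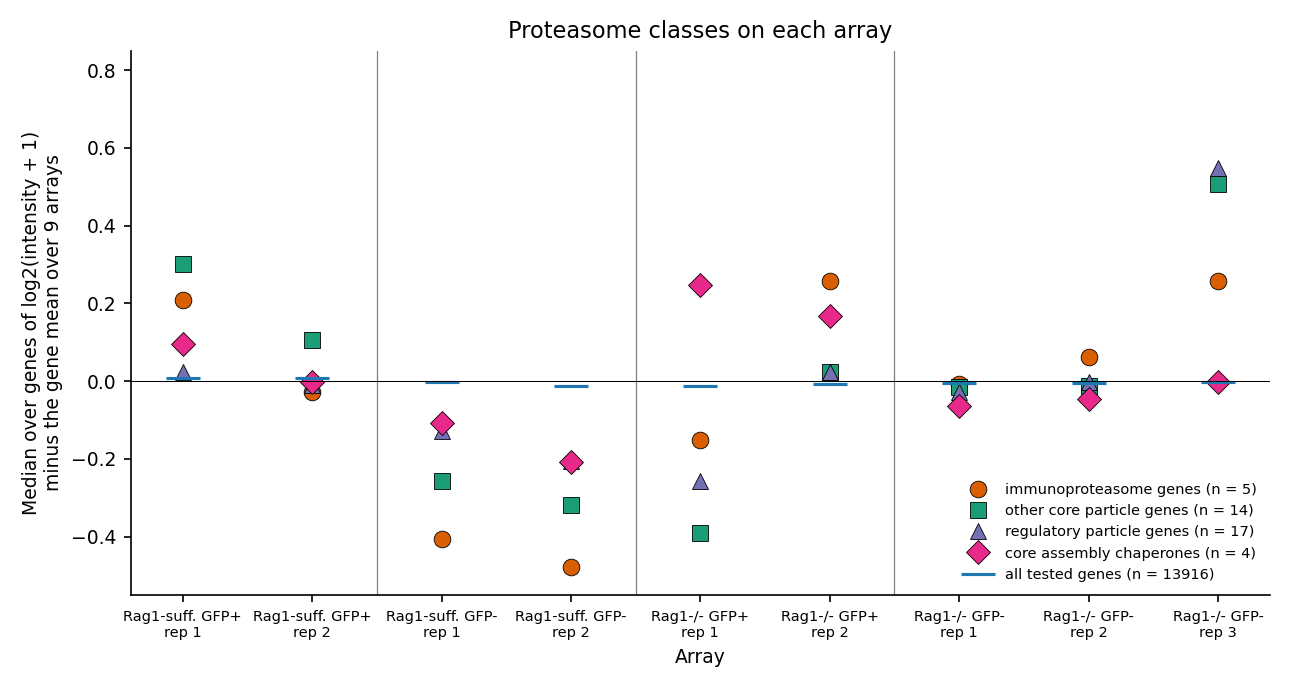
Points give, for each array, the median over genes of log2(intensity + 1) minus the gene's mean over 9 arrays, for 5 immunoproteasome genes, 14 other core particle genes, 17 regulatory particle genes, 4 core assembly chaperones and all 13916 tested genes. Immunoproteasome genes are lowest on the Rag1-sufficient GFP- arrays (-0.41 and -0.48), while the other core and regulatory genes are highest on Rag1-/- GFP- replicate 3 and the dashes of all genes stay near 0.

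Whether the gate difference changed with genotype was tested as an interaction, the difference in Rag1-/- mice minus that in Rag1-sufficient mice. It was negative for all 5 immunoproteasome genes (median -0.86) and for 38 of 42 others (median -0.58), while 48.1% of all tested genes were positive. In limma 0 passed (0% of all tested genes did), and 15 were lower at an unadjusted p under 0.05 (9.65% of all tested genes) and 0 higher (3.55%). The values were -0.86 ± 0.19 for Psmb3 (limma, adjusted p = 0.217), -1.55 ± 0.40 for Psmb5 (0.252), -1.35 ± 0.37 for Psmb1 (0.257) and -0.99 ± 0.31 for Psmb8 (0.277). Without Rag1-/- GFP+ replicate 1 and Rag1-/- GFP- replicate 3 together the medians were -0.34 and -0.17; without Rag1-/- GFP+ replicate 1 they were -0.60 and -0.37, and without Rag1-/- GFP- replicate 3 they were -0.55 and -0.37. Without Rag1-/- GFP+ replicate 2, Psma1, Psmb3 and Psmd14 passed in limma (adjusted p from 0.0272 to 0.029), while 494 of 17445 probe sets (2.83%) were called against 0 with all arrays.

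The assembly chaperones of the core had another order than most subunits in the Rag1-/- gate comparison. Psmg1, Psmg2, Psmg3 and Psmg4, which pair into chaperones for the alpha ring, were all positive for GFP+ minus GFP- in Rag1-/- mice (0.20, 0.20, 0.25 and 0.11), where 33 of the 42 genes of their class were negative. Except for Psmg1, these values depended on single arrays: Psmg3 was at 0.012 without Rag1-/- GFP+ replicate 1, Psmg2 at -0.09 without replicate 2 of that group and Psmg4 at 0.018 without Rag1-/- GFP- replicate 1. Psmg1 read 106 and 104.5 in Rag1-/- GFP+ cells, above the other 7 arrays (71.2 to 97.6), and differed by 0.38 ± 0.13 from Rag1-sufficient GFP+ cells (limma, adjusted p = 0.567; 0.20 without Rag1-sufficient GFP+ replicate 1). Psmg3 was dim, at 49.6 to 75.1. In the Rag1-sufficient gate comparison with all arrays, Psmg2, Psmg3 and Psmg4 were positive like most subunits and Psmg1 was negative. In Rag1 loss among GFP- cells Psmg1, Psmg2 and Psmg4 were positive and Psmg3 was negative. The chaperones of the ATPase ring had the signs of most subunits outside Rag1 loss among GFP+ cells: Psmd5, Psmd9 and Psmd10 were positive in the Rag1-sufficient gate comparison (0.33, 0.13 and 0.42) and in Rag1 loss among GFP- cells (0.63, 0.23 and 0.75), and negative in the Rag1-/- gate comparison (-0.34, -0.06 and -0.60), where Psmd5 was at -0.15 and Psmd9 turned to 0.010 without Rag1-/- GFP+ replicate 1 and Rag1-/- GFP- replicate 3, respectively. Among GFP+ cells, Psmd9 was higher in Rag1-/- than in Rag1-sufficient cells without overlap (113.0 and 114.7 against 112.7 and 109.0). Psmd5 and Psmd10 had lower means there. In the Rag1-sufficient gate comparison Psmd5 was at 0.20 without GFP+ replicate 2 and Psmd10 at 0.21 without GFP- replicate 2. None of these 7 chaperone genes passed the adjusted threshold in any comparison.

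The alternative activators differed from one another. Psme3, whose product forms a nuclear cap, read 841 and 1001 in Rag1-sufficient GFP+, 689 and 721 in Rag1-sufficient GFP-, 616 and 715 on the Rag1-/- GFP+ arrays, and 816, 877 and 872 in Rag1-/- GFP- cells. Without overlap, GFP+ was above GFP- in Rag1-sufficient mice (0.38 ± 0.16, limma, adjusted p = 0.352) and below it in Rag1-/- mice (-0.37 ± 0.14, 0.689). Psme4, a large single-chain activator, read 374 and 480.3, then 512 and 543, then 372 and 457.5, then 471, 393 and 377. Its Rag1-sufficient GFP- arrays were the highest of the 9, the reverse of most subunits, and it was lower by 0.36 ± 0.18 in Rag1-/- GFP- cells (-0.36, adjusted p = 0.335).

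Psmf1, which encodes a proteasome inhibitor, read 255 and 307, then 223 and 246, then 209 and 278, then 310.2, 303 and 297. Its interaction was -0.59 ± 0.23 (limma, adjusted p = 0.337; -0.38 without Rag1-/- GFP+ replicate 1). Psmb11, the catalytic subunit of the thymic cortex, was dim (43.9 to 65.4) with the same value of 51.7 on 5 arrays, and Psma8, a testis-restricted alpha subunit, was below the filter. Psme3ip1, the interacting protein above the filter, read 222 to 268, with no difference over 0.16 in size in the 4 comparisons between groups.

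Several probe sets were present for Psma3, Psma5, Psmb3, Psmc1 and Psmd2, and the sets of a gene differed in sign in 4 of 25 gene and comparison pairs. RefSeq lists pseudogenes of Psma5, Psmb5, Psmb6 and Psmb7 under these names and the near copy Psme2b of Psme2, so the signals of these genes are uncertain. The 2 sets of Psma5 gave 0.32 and 0.64 in the Rag1-sufficient gate comparison. Probe sets of Psma3 and Psmb3 may also share sequence with copies elsewhere, and no probe sequence was tested here. Equal values on at least 2 arrays were found in 13 of the 56 probe sets and in 12464 of all 24922.

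Genes that act with the proteasome were read from 4 lists, and 0 of them passed the adjusted threshold in any comparison by limma. Of 12 assembly factors, cofactors and transcription factors, 1 was higher at an unadjusted p under 0.05 in the Rag1-sufficient gate comparison (7.70% of all tested genes) and 2 in Rag1 loss among GFP- cells (9.73%), and 0 were lower in the 4 comparisons between groups. Pomp, the maturation factor of the core, read 260.3 and 236 in Rag1-sufficient GFP+, 142 and 153 in Rag1-sufficient GFP-, 142.5 and 243 on the Rag1-/- GFP+ arrays, and 211, 219.7 and 258 in Rag1-/- GFP- cells. Its differences were 0.74 ± 0.23 in the Rag1-sufficient gate comparison (adjusted p = 0.222) and 0.63 ± 0.21 in Rag1 loss among GFP- cells (0.217). Pomp was lowest on the Rag1-sufficient GFP- arrays and on Rag1-/- GFP+ replicate 1. Nfe2l1, a transcription factor of subunit genes named here after its values were seen, ran from 304 to 409 and was highest on Rag1-sufficient GFP- replicate 2.

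Of 14 ubiquitin and shuttling genes, 0 had an unadjusted p under 0.05 in the Rag1-sufficient gate comparison, and 2 were lower in the Rag1-/- gate comparison (5.0% of all tested genes). Those were Nsfl1c and Nploc4, cofactors of the ATPase that extracts ubiquitinated proteins (-0.48 ± 0.16 and -0.35 ± 0.14, limma, adjusted p = 0.689 for both). In Rag1 loss 1 was higher among GFP- cells, Nsfl1c (0.56 ± 0.16, limma, adjusted p = 0.186; 9.73% of all tested genes), and 1 lower among GFP+ cells, Nploc4 (-0.51 ± 0.16, adjusted p = 0.477; 4.48%).

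Of 10 genes for MHC class I peptide loading, 4 were higher and 1 lower at an unadjusted p under 0.05 in Rag1 loss among GFP- cells (9.73% and 6.79% of all tested genes). In the Rag1-sufficient gate comparison 2 were higher (7.70%), in the Rag1-/- gate comparison 3 were lower (5.0%), and in Rag1 loss among GFP+ cells 0 were either. Tapbp, which tethers MHC class I to the peptide transporter, read 758 and 712 in Rag1-sufficient GFP- and 1045, 1192 and 1155 in Rag1-/- GFP- cells (0.62 ± 0.15, limma, adjusted p = 0.144). Tap1 read 260.01 and 290.5 against 352, 381 and 427.5 (0.49 ± 0.14, 0.186), and was 362 and 348 in Rag1-sufficient GFP+ cells. For Tap1, as for 4 of the 5 immunoproteasome genes, the Rag1-sufficient GFP- arrays were the lowest of the 9. B2m, the light chain of MHC class I, differed little (7909 to 9145).

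Of 12 genes of interferon-gamma signalling, 1 was higher and 2 lower at an unadjusted p under 0.05 in the Rag1-sufficient gate comparison (7.70% and 4.89% of all tested genes), and 1 was higher and 1 lower in Rag1 loss among GFP- cells (9.73% and 6.79%). Ifng itself, named here after its values were seen, read 488 and 375 in Rag1-sufficient GFP+, 114 and 237 in Rag1-sufficient GFP-, 95.4 and 553 on the Rag1-/- GFP+ arrays, and 149, 195.5 and 218 in Rag1-/- GFP- cells. Irgm1, an interferon-gamma-induced GTPase, read 511 and 496 against 276 and 256 in the Rag1-sufficient GFP+ and GFP- samples (0.92 ± 0.33, limma, adjusted p = 0.282). Stat2 had the opposite order, 152 and 155 against 223 and 239.8 (-0.59 ± 0.16, adjusted p = 0.159). Nlrc5, the activator of MHC class I genes and likewise named after its values were seen, was highest on the Rag1-sufficient GFP- arrays (832 and 886, against 552.5 to 798 elsewhere).

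Genes listed as markers of other cells moved with the groups. Rag1-/- mice have no conventional T cells and all cells were sorted as CD3-. The T cell gene sums on the Rag1-/- arrays are therefore not read as T cell content. The summed intensity of 8 T cell genes was 3291 to 3983 for GFP+ and 2476 to 2613 for GFP- arrays of Rag1-sufficient mice, and 4141 to 7581 for GFP+ and 5238 to 7899.7 for GFP- arrays of Rag1-/- mice. Cd3e rose in Rag1-/- GFP+ cells (2.68, limma, adjusted p = 0.0430). Cd3g, Cd3d and Cd247 were also higher on both Rag1-/- GFP+ arrays than on either Rag1-sufficient GFP+ array. Zap70, Lat, Cd5 and Cd6 overlapped between these groups, with Lat at 782 and 1163 against 1221 and 1011. Keratinocyte transcripts summed to 2995 to 3441, 3472 to 5471, 2083 to 2339 and 2298 to 3288 over 12 genes in the same order of groups. Macrophage and monocyte sums over 10 genes were 576 to 618, 733 to 749, 550.4 to 566 and 529 to 618, and fibroblast sums over 6 genes were 950.4 to 1608, 1230.0 to 1591, 767 to 1604 and 926 to 1071. The Rag1-sufficient GFP- arrays, which had the lowest immunoproteasome values, also had the highest mast cell, keratinocyte, macrophage and dendritic cell sums and the lowest T cell sums; the part of these in the proteasome differences was not tested.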

How the data were processed

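The authors deposited 1 linear intensity for each of 24922 probe sets on each of 9 single-colour Affymetrix arrays. MAS5 is named, without a version or role, in the submitters' processing notes; the normalization, detection calls and genome build are not given in the sources used here. No further scaling was applied. Intensities were analysed as log2(intensity + 1), and dropping the dimmest 30% by mean left 17445 probe sets. Of all probe sets, 21425 had 1 gene symbol in the platform annotation, 1399 several and 2098 none, and only the first were named.

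All 9 arrays entered 1 linear model with a term per group (4 groups) in limma 3.58.1 under R 4.3.3, by lmFit and then eBayes with trend, two-sided. The comparisons were 5 contrasts of that model. Benjamini-Hochberg adjustment ran over the 17445 probe sets, a call needed an adjusted p under 0.05, and a gene was represented by its probe set of highest mean. The fit had 5 residual degrees of freedom, so the number of arrays limits the precision. The script was tested on simulated data. The proteasome genes and the gene lists were chosen with earlier results of these data known. The genes named were the immunoproteasome genes, their standard counterparts, the chaperones and regulators, the 3 highest and 3 lowest differences of each comparison, genes with opposite differences in 2 groups, and the 2 list genes of smallest p in each comparison; others are named as examples, chosen after their values were seen. Promoter windows from RefSeq (GRCm38.p6) were found for 42 of 50 genes by symbol. Alternatives were the pseudocount, the filter, 2 scalings, the trend, array weights, a replicate block, the mean of a gene's probe sets and leaving out each array.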

Additional observations from a re-analysis of the deposited data

Results flagged for a closer look

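For 15 proteasome genes every array of a group lay on one side in 1 comparison and on the opposite side in the matching comparison. The share of all tested genes with this pattern was not counted. The counts in this section therefore cannot be read as particular to proteasome genes. The difference between the 2 comparisons was tested as the interaction in limma, and none passed (adjusted p from 0.217 to 0.748). The 2 comparisons share no arrays.

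Rag1-/- cells were below Rag1-sufficient cells among GFP+ arrays and above them among GFP- arrays for 12 genes. In the core particle the interaction was -1.55 for Psmb5, -1.35 for Psmb1, -1.04 for Psma1, -0.97 for Psmb7, -0.86 for Psmb3 and -0.67 for Psmb6. In the regulatory particle it was -1.06 for Psmd2, -1.03 for Psmd14, -0.78 for Psmc4, -0.61 for Psmc5 and -0.29 for Psmc2. For the nuclear activator gene Psme3 it was -0.74. The second probe set of Psmd2 did not show the pattern, with the same value of 506.8 on Rag1-sufficient GFP- replicate 2 and Rag1-/- GFP- replicate 1. Without Rag1-/- GFP+ replicate 1 the values of Psma1, Psmb6 and Psmd2 were -0.61, -0.37 and -0.66, and without Rag1-/- GFP- replicate 3 those of Psmc5 and Psmc2 were -0.36 and -0.14.

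GFP+ cells were above GFP- cells in Rag1-sufficient mice and below them in Rag1-/- mice for Psmb4 (-1.19), Psme3 (-0.74), Psmc5 (-0.61), the inhibitor gene Psmf1 (-0.59), Psmc2 (-0.29) and Psmd11 (-0.14). Without Rag1-/- GFP- replicate 3 the value of Psmb4 was -0.68. No immunoproteasome gene showed either pattern. No group held 4 or more arrays, so single arrays were not tested for standing apart.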

How the results depend on the processing

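With 2 or 3 arrays a group, no proteasome gene passed in limma, and the number that passed depended on the weighting and on the Rag1-/- GFP+ arrays. Of the alternatives to the counts and medians, 261 stayed close to the reported value and 29 moved. A median counted as close if it moved by less than the spread of array medians within groups. That spread was 0.17 for immunoproteasome and 0.19 for other genes, so a median near 0 could change sign and count as close. Many medians could not move, as when the array left out belonged to neither group compared. The 261 are thus no measure of stability. With array weights 9 genes passed in the Rag1-sufficient gate comparison and 7 in Rag1 loss among GFP- cells. Leaving out 1 array gave 0 to 3 genes in the Rag1-sufficient gate comparison, 0 to 0 in the Rag1-/- gate comparison, 0 to 1 in Rag1 loss among GFP+ cells, 0 to 0 among GFP- cells and 0 to 3 in the interaction. In the same order the immunoproteasome median ran from 0.36 to 0.78, -0.32 to -0.024, -0.34 to 0.17, 0.51 to 0.84 and -1.11 to -0.55, and the median of the other genes from 0.21 to 0.28, -0.48 to -0.10, -0.33 to -0.05, 0.21 to 0.42 and -0.68 to -0.37.

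Without both Rag1-/- GFP+ replicate 1 and Rag1-/- GFP- replicate 3, chosen after the data were seen, 4 genes passed in the Rag1-sufficient gate comparison, where 523 of 17445 probe sets (3.0%) were called against 139 with all arrays. The immunoproteasome medians were 0.14 in the Rag1-/- gate comparison, 0.17 in Rag1 loss among GFP+ cells and -0.34 in the interaction, and those of the other genes 0.037 and -0.17 in the Rag1-/- gate comparison and the interaction. Quantile normalization moved the immunoproteasome interaction to -0.63. Arrays of different groups with the same replicate number had correlations of deviations from -0.506 to 0.236. In a group of 2 arrays the deviations mirror each other, so these values cannot show whether such arrays share animals. With the replicate numbers as a replicate block, the interaction medians were -0.55 for immunoproteasome and -0.37 for other genes, and 0 proteasome genes passed. The probe sets called then fell from 139 to 73, 43 to 2 and 25 to 6 in the Rag1-sufficient gate comparison and in Rag1 loss among GFP+ and GFP- cells.

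Single immunoproteasome genes near 0 changed sign. In the Rag1-/- gate comparison these were Psmb8 (0.12) and Psme2 (0.22) without both arrays, Psme1 (0.14 without both, 0.092 without Rag1-/- GFP+ replicate 1, 0.036 with quantile normalization), Psmb9 (0.068 with quantile normalization, 0.013 with equal array means, 0.0070 with the replicate block; -0.053 to 0.0070 over arrays left out in turn) and Psmb10 (-0.035 to 0.48 likewise, lowest without Rag1-/- GFP+ replicate 2). In Rag1 loss among GFP+ cells without both arrays they were Psmb8 (0.19), Psmb10 (0.027), Psme1 (0.17) and Psme2 (0.24), and with quantile normalization Psme1 (0.073) and Psme2 (0.041). Over arrays left out in turn there, the range was -0.37 to 0.19 for Psmb8, -0.21 to 0.020 for Psmb9, -0.48 to 0.027 for Psmb10, -0.24 to 0.17 for Psme1 and -0.35 to 0.25 for Psme2, with the positive values without Rag1-/- GFP+ replicate 1 or Rag1-sufficient GFP+ replicate 1. In Rag1 loss among GFP- cells Psmb9 turned to -0.037 with quantile normalization. The cause was not tested.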
